A study of Mus musculus with 12 samples.

Results

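The genes described here encode the MHC class II molecules of the mouse and the proteins that load them with peptide. There are 10 of them among the 24499 gene symbols of the count table, chosen by name and not by any measured value: the chains H2-Aa, H2-Ab1 and H2-Eb1, the DM chains H2-DMa, H2-DMb1 and H2-DMb2, the DO chains H2-Oa and H2-Ob, the invariant chain Cd74, and the regulator Ciita. All 10 had enough reads to be tested. They were measured in lymph node cells enriched on beads against CD11c, the integrin of dendritic cells and some macrophages, from 6 wildtype (C57BL6) and 6 APOE-KO libraries. All mice bore E0771-cOC tumours, grown from a line of mouse mammary carcinoma, and the tumour-draining nodes were taken at day 9 after injection. No group without a tumour was part of the comparison. The labels do not give the age of the mice, the strain background or the allele of the APOE-KO mice, or whether a library came from 1 animal or from several.

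Class II molecules present peptides from endosomes to CD4 T cells. The alpha and beta chains assemble in the endoplasmic reticulum around the invariant chain, which fills the groove and directs the complex to endosomes. Cathepsins and other proteases cut the invariant chain down to a peptide called CLIP, DM exchanges CLIP for antigen peptides, and DO holds DM back. Transcription of these genes rests on a fixed arrangement of promoter boxes (W, X and Y), bound by RFX, CREB-family and NF-Y proteins, onto which the class II transactivator CIITA is recruited. Dendritic cells, B cells and macrophages all carry class II, so a bulk sample sums over them, and fewer cells of a type cannot be told apart here from less RNA per cell.

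Of the members, 8 lie with the related gene H2-Eb2 in a stretch of 249.1 kb on chromosome 17 (34092340 to 34341412, GRCm38, GENCODE vM21) in the order H2-Oa, H2-DMa, H2-DMb2, H2-DMb1, H2-Ob, H2-Ab1, H2-Aa, H2-Eb1, H2-Eb2. RefSeq promoter sequences (GRCm38.p6) were at hand for 7 of the members, and H2-Ab1, Cd74 and Ciita were not matched. The sequences below are shown because they carry the arrangement through which these genes share a regulator: capitals mark ATTGG, the core of the Y box, and the letters AAC that belong to the X box upstream of it. Each runs 5′ to 3′ on the strand of the gene, from 140 to 21 bases before the RefSeq transcript start. The windows are H2-Aa at chr17:34287844-34287963 on the minus strand, H2-Eb1 at chr17:34305727-34305846 on the plus strand, H2-DMb1 at chr17:34153051-34153170 on the plus strand, H2-DMb2 at chr17:34145109-34145228 on the plus strand, H2-Oa at chr17:34092239-34092358 on the plus strand, H2-Ob at chr17:34238765-34238884 on the plus strand and H2-Eb2 at chr17:34325535-34325654 on the plus strand.
H2-Aa: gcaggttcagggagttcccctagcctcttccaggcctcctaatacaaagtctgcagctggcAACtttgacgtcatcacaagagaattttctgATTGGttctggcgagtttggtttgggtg
H2-Eb1: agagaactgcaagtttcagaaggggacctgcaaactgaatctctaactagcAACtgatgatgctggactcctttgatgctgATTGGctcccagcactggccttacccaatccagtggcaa
H2-DMb1: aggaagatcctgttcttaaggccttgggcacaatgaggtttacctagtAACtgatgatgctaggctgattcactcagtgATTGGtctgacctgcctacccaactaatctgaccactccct
H2-DMb2: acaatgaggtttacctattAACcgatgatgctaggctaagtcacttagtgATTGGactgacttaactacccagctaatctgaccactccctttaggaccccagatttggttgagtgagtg
H2-Oa: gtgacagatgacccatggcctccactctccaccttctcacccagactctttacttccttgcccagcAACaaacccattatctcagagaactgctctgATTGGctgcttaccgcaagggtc
H2-Ob: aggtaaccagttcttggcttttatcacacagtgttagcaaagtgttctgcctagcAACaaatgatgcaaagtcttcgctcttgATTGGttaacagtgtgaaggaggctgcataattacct
H2-Eb2: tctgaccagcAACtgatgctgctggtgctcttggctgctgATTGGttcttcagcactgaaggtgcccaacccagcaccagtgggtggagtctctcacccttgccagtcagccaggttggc

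In these 7 windows the AAC began 28 to 31 bases before the ATTGG. AAC followed after 25 to 28 bases by ATTGG, searched on both strands of the 250 bases before the start, was found for 6 of the 7 members with a sequence and in 2.09% of all 32851 promoters, while ATTGG alone was in 33.8% of them. The spacing was set after the sequences had been read, so the counts describe them and test nothing. The windows of H2-DMa do not hold the pair at this spacing.

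The 12 libraries held 2381477 to 4898360 reads, and 3 reads in a library stand for 0.525 to 1.59 CPM, the unit used below, which is the read count scaled to the library size after TMM. Apoe, the knocked-out gene, had 409 to 531 CPM in wildtype libraries and 2.76 to 10.7 CPM in APOE-KO libraries, so that no library went against its label. Itgax, the gene of the bead target, had 277.9 ± 54.0 and 298 ± 36.9 CPM (SD, n = 6 each). Markers of B cells, T cells, plasmacytoid dendritic cells and macrophages were present beside those of conventional dendritic cells, so the preparation was enriched rather than pure. The 45S ribosomal RNA gene Rn45s took 2.71% of the reads of wildtype library 3 and 32.2% of wildtype library 1, with the other 10 libraries between 5.17% and 21.6%. These wildtype libraries stood apart for several class II genes. As the labels do not tie libraries to separate animals, the p-values rest on a spread between samples that may be technical.

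H2-Aa, H2-Ab1, H2-Eb1 and Cd74 were among the abundant messages of these cells, with means of 2403 to 6349 CPM in wildtype libraries. Their means in APOE-KO were 2387 to 6058 CPM, with log2 fold changes from -0.14 to -0.01. The other members had wildtype means from 9.65 CPM (H2-DMb2) to 839 CPM (H2-DMb1). The members together took 1.17% to 2.76% of the reads of a wildtype library and 1.48% to 1.98% of an APOE-KO library. With the Rn45s reads taken out of the total, these shares were 1.72% to 2.83% and 1.815% to 2.27%. None of the 10 passed edgeR's quasi-likelihood test at an adjusted p under 0.05, against 1.49% of all 10714 genes tested in either direction. At an unadjusted p under 0.05 stood 2 members, H2-Ob and Ciita, both lower in APOE-KO. Over all genes that share was 12.1%, or 5.81% in the lower direction. With DESeq2 1 member passed (H2-Ob) and with limma-voom none, and at an unadjusted p under 0.05 stood 2 and 1. Of all 10714 genes DESeq2 called 274 and limma-voom 167, against 160 in edgeR's test. All 10 fitted differences were below 0, as were 52.8% of those of all genes, and all 10 lay within 0.5 of 0 on the log2 scale, as did 84.2%. The median log2 fold change was -0.13 for the members and -0.018 for all genes. With the share of Rn45s as a covariate 5 of the 10 were below 0, and without wildtype library 3 also 5. With no filter on low counts 8 were below 0, in limma-voom 9, without APOE-KO library 1, 2 or 4 there were 8, and without wildtype library 4 or 6 there were 9, so the common sign did not hold across settings.

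**Figure D1:**
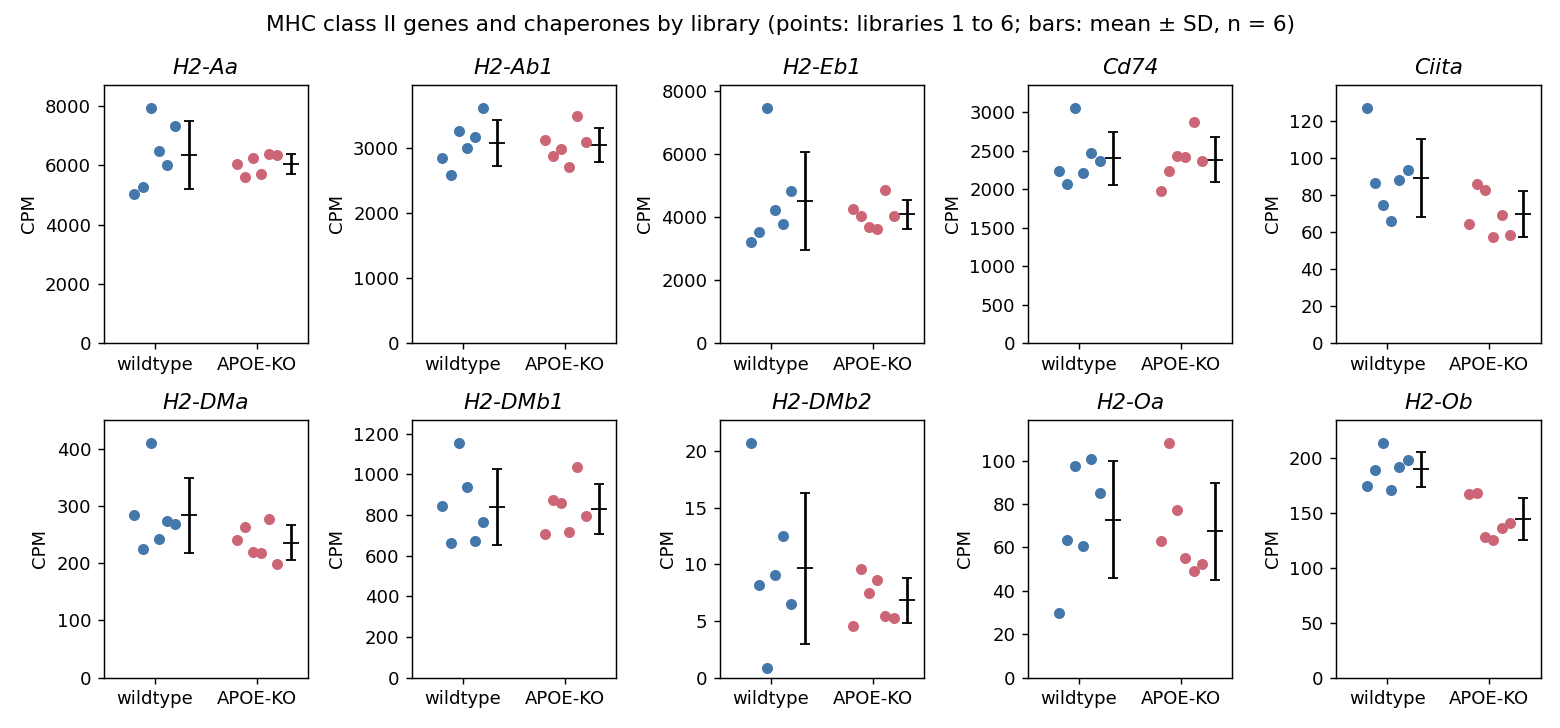
CPM of each class II gene (vertical axes from 0) in the 6 wildtype and 6 APOE-KO libraries, drawn as points in the order of library number, with the mean ± SD beside them. H2-Ob is the gene whose groups do not overlap, at 171 to 214 CPM in wildtype libraries and 126 to 168 CPM in APOE-KO.

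The chains of the class II heterodimers came first. H2-Aa, the alpha chain of I-A, had a lowest, median and highest level of 5019, 6264 and 7929 CPM in wildtype libraries and of 5604, 6143 and 6399 CPM in APOE-KO. Every APOE-KO library lay inside the wildtype range, and the wildtype libraries spread more widely. The log2 fold change of H2-Aa (APOE-KO over wildtype) was -0.07 ± 0.11 (SE), with a 95% interval from -0.29 to 0.16 and adjusted p = 0.875 in edgeR's test. H2-Ab1, the beta chain that pairs with it, had 2575, 3077 and 3604 CPM in wildtype libraries and 2700, 3031 and 3482 CPM in APOE-KO. Its groups overlapped almost wholly. For H2-Ab1 the log2 fold change was -0.01 ± 0.10, with an interval from -0.22 to 0.20, which is 0.856-fold to 1.15-fold. This was the member with the least spread between libraries of a genotype, an SD of 0.147 on the log2 CPM scale.

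H2-Eb1 encodes the beta chain of I-E. In mice of the C57BL/6 background its alpha partner gene is defective, and the alpha gene, listed as H2-Ea-ps, held no read in any of the 12 libraries. H2-Eb1 was transcribed all the same, at 3195, 3994 and 7436 CPM (lowest, median, highest) in wildtype and 3622, 4024 and 4860 CPM in APOE-KO. Wildtype library 3, with 7436 CPM, stood well above the next wildtype library at 4821 CPM, while the medians of the genotypes were nearly the same. Its log2 fold change was -0.14 ± 0.15 (interval -0.46 to 0.17, adjusted p = 0.792 in edgeR's test) and 0.07 without wildtype library 3. H2-Eb1 overlaps Gm20513 on the other strand. Per H2-Ab1 read there were 1.77 to 2.44 H2-Aa reads in wildtype and 1.84 to 2.12 in APOE-KO, a level ratio from a 3′ library, in which a transcript gives reads near its end whatever its length; the same holds for every comparison of levels between genes here.

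Cd74 (chromosome 18, 60803848 to 60812652, plus strand), the invariant chain, had 2074, 2300.0 and 3053 CPM in wildtype libraries and 1978, 2397 and 2876 CPM in APOE-KO. The lowest library was an APOE-KO one and the highest was wildtype library 3. Cd74 had a log2 fold change of -0.01 ± 0.11 (interval -0.24 to 0.22, adjusted p = 0.989 in edgeR's test). As a ratio of levels, Cd74 stood at 0.656 to 0.938 of H2-Ab1 in wildtype and at 0.633 to 0.898 in APOE-KO.

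Ciita (chromosome 16, 10480059 to 10528418, plus strand) encodes the transactivator that sets whether class II genes are transcribed. Its level was 65.8, 87.2 and 127 CPM (lowest, median, highest) in wildtype and 57.5, 66.8 and 86.0 CPM in APOE-KO. The highest of all was wildtype library 1, and 3 of the 6 APOE-KO libraries lay below the lowest wildtype library. Ciita was 1.28-fold lower in APOE-KO as fitted (log2 fold change -0.35 ± 0.16, interval -0.69 to -0.01), and its adjusted p was 0.395 (unadjusted p of 0.0435) in edgeR's test, so the difference did not pass over all genes. Without wildtype library 1 the log2 fold change was -0.23 (adjusted p = 0.632), and with the Rn45s share as a covariate it was -0.45 (adjusted p = 0.0825). Ciita overlaps Dexi on the other strand, and the sources used here do not say whether reads were counted by strand.

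The DM chaperone came next. H2-DMa, its alpha chain, had 225, 271 and 409.7 CPM in wildtype libraries and 198, 230.1 and 277 CPM in APOE-KO. Wildtype library 3 gave the highest value and the next wildtype library had 284 CPM. H2-DMa had a log2 fold change of -0.27 ± 0.14 (interval -0.56 to 0.03, adjusted p = 0.463 in edgeR's test), or -0.12 without that library. H2-DMa overlaps CR974462.3 on its own strand and Brd2, CR974462.4 and Gm20493 on the other. H2-DMb1, the main beta chain, had 661, 803.5 and 1153 CPM in wildtype libraries and 704, 827 and 1035 CPM in APOE-KO. Its groups overlapped over most of their range and the log2 fold change was -0.02 ± 0.14 (interval -0.30 to 0.27).

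The second beta gene, H2-DMb2, was barely read. It held 5 to 45 reads per library, or 0.875, 8.62 and 20.7 CPM (lowest, median, highest) in wildtype and 4.58, 6.47 and 9.56 CPM in APOE-KO. Both extremes were wildtype libraries, number 3 the lowest and number 1 the highest. The log2 fold change of -0.47 ± 0.48 had an interval from -1.45 to 0.52, which includes a decrease of 2-fold. It was -0.12 without wildtype library 1 and -0.71 without wildtype library 3, and the SD between libraries of a genotype was the widest of the members, 0.982 on the log2 CPM scale. In the last 500 bases of the annotated H2-DMb1 transcripts, 20.4% of the 50-base stretches occur also in H2-DMb2. Of those of H2-DMb2, 13.6% occur in other genes, 164 in number. Reads may thus have been split between the pair or shared with further genes, and the values of H2-DMb2 are uncertain. Summed into one gene, the pair had a log2 fold change of -0.02, a sum that leaves the further genes aside. No other member shared such a stretch with another gene.

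DO was the chaperone with the clearest difference, in its beta chain. H2-Ob had 171, 191 and 214 CPM in wildtype libraries and 126, 139 and 168 CPM in APOE-KO. Each APOE-KO library lay below each wildtype library. This held for 1 of the 10 members and for 1.77% of all tested genes in either direction (0.541% in the lower one). The mean was 189.9 ± 15.8 CPM in the wildtype libraries and 144.5 ± 18.9 CPM in the APOE-KO libraries (SD over 6 libraries each). The fitted level was 1.31-fold lower. H2-Ob had a log2 fold change of -0.39 ± 0.12 (interval -0.65 to -0.14), and its adjusted p was 0.143 (unadjusted p of 0.00413) in edgeR's test, so it did not pass. In DESeq2 it passed (adjusted p = 0.0298), and over all alternatives the adjusted p ran from 0.0298 to 1. In the fits without 1 library its log2 fold change stayed between -0.44 and -0.35 and its adjusted p between 0.105 and 0.294.

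H2-Oa, the alpha chain of DO, had 29.7, 74.3 and 100.7 CPM in wildtype libraries and 49.0, 59.0 and 108 CPM in APOE-KO. Wildtype library 1 was the lowest and an APOE-KO library the highest, with wide overlap. H2-Oa had a log2 fold change of -0.13 ± 0.23 (interval -0.61 to 0.35, adjusted p = 0.894 in edgeR's test), and it overlaps BC051537 on the other strand. Single libraries moved that value: it was -0.28 without wildtype library 1, -0.02 without wildtype library 3 or 5, and -0.31 without APOE-KO library 2. The ratio of H2-Ob to H2-DMb1 levels ran from 0.182 to 0.287 in wildtype and from 0.132 to 0.238 in APOE-KO, and that of H2-Oa to H2-DMa from 0.105 to 0.368 and from 0.177 to 0.411. For both ratios of DO to DM the genotypes overlapped.

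**Figure D2:**
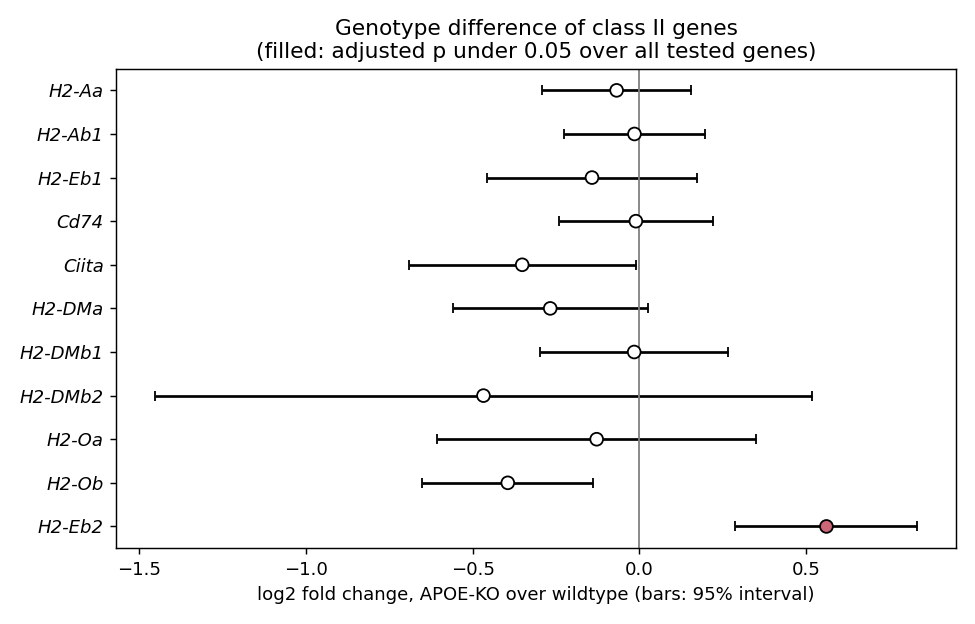
Log2 fold change (APOE-KO over wildtype, horizontal axis) of the 10 members and H2-Eb2, with 95% intervals from edgeR's fit as bars; filled points passed an adjusted p of 0.05. H2-Eb2 is the 1 filled point, at 0.56, and the intervals of H2-Ob and Ciita are the 2 among the members that do not reach 0.

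By mean level in wildtype the order was H2-Aa, H2-Eb1, H2-Ab1, Cd74, H2-DMb1, H2-DMa, H2-Ob, Ciita, H2-Oa and H2-DMb2, and APOE-KO gave the same order. Of neighbours in that order, H2-Aa and H2-Eb1, and likewise H2-Eb1 and H2-Ab1, overlapped in wildtype and not in APOE-KO, H2-Ab1 and Cd74 overlapped in both genotypes, and so did Ciita and H2-Oa. The other neighbours overlapped in neither genotype.

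H2-Eb2, a beta chain gene next to H2-Eb1 that is not one of the members, went the other way. It had 97.7 to 111 CPM in wildtype libraries and 117 to 180.0 CPM in APOE-KO, with means of 104 ± 5.05 and 154 ± 24.9 CPM (SD, n = 6 each). Every APOE-KO library lay above every wildtype library. H2-Eb2 rose 1.48-fold (log2 fold change 0.56 ± 0.13, adjusted p = 0.0261 in edgeR's test). The call was lost on leaving out any 1 of 6 libraries (wildtype 5 and 6, APOE-KO 1, 3, 4 and 6), at an adjusted p from 0.0515 to 0.0881, or wildtype libraries 1 and 3 together (0.0685). It was also lost with the B cell marker mean as a covariate (0.0826), with the epithelial marker mean as a covariate (0.182) and with a replicate block (0.124). The log2 fold change of H2-Eb2 lay between 0.51 and 0.78 in all the settings run. The value of 0.78 came with the epithelial marker mean, which itself differed between the genotypes.

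The genes that act on class II promoters showed no call. Of the 9 tested genes of the promoter complex (RFX, NF-Y and CREB families) none passed in either direction, with a median log2 fold change of 0.0033. Those with the smallest p were Nfyb and Nfyc, subunits of NF-Y, at 77.7 ± 8.17 and 63.5 ± 6.45 CPM (adjusted p = 0.398) and at 18.1 ± 4.77 and 11.9 ± 5.34 CPM (adjusted p = 0.451), wildtype first. Rfx5, which binds the X box and was added after its values were seen, stood at 115 ± 16.7 and 124 ± 10.7 CPM. Of 17 tested factors and signals acting on Ciita none passed, with 7 differences above 0 and 10 below. Tcf4, the E protein that drives plasmacytoid dendritic cells, had 637 ± 165 and 459.9 ± 48.9 CPM (adjusted p = 0.107 in edgeR's test). Tcf4 passed in DESeq2 (adjusted p = 0.0347) and with the Rn45s share as a covariate (0.00579). Spi1, encoding PU.1, had 132.5 ± 21.6 and 178 ± 47.6 CPM (adjusted p = 0.228). At an unadjusted p under 0.05 in edgeR's test stood 1 of the 9 genes of the promoter complex and 4 of the 17 factors, against 12.1% of all genes.

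Of the lists around class II, that of antigen and invariant chain processing held the most calls. Of 12 tested genes 4 were called higher and none lower, against 1.08% and 0.411% of all genes. The median log2 fold change was 0.35, with 10 differences above 0 and 2 below. Ctsd, an aspartic protease of lysosomes, rose 2.13-fold, from 174 ± 29.7 to 372 ± 26.3 CPM (SD, n = 6 each). Lgmn, legumain, rose 2.20-fold, and the cathepsins Ctsb and Ctsz rose 1.52-fold each (adjusted p of the 4 genes from 1.04e-05 to 0.0159 in edgeR's test). For Ctsd, Lgmn and Ctsb the groups did not overlap. Ctss, the protease that makes the last cut in the invariant chain, was 1267 ± 186 CPM in wildtype libraries and 1719 ± 195 CPM in APOE-KO, also without overlap, with an adjusted p of 0.0614. Ctss was singled out after its values were seen, and it passed in 7 of the 25 alternatives, among them DESeq2 (0.0135) and limma-voom (0.0415). Ctsl, a further cathepsin of the list also named after its values were seen, went the other way. It had a log2 fold change of -0.45 (interval -0.77 to -0.14, adjusted p = 0.1765 in edgeR's test). The calls of Ctsb, Ctsz and Lgmn ended with the epithelial marker mean as a covariate (adjusted p from 0.233 to 1). Their log2 fold changes were then 0.67 for Ctsb (0.60 without the covariate), 0.92 for Lgmn (1.14) and 0.35 for Ctsz (0.60). The epithelial markers themselves differed between the genotypes, with sums of 66.3 to 99.5 CPM in wildtype and 8.69 to 69.9 CPM in APOE-KO. This covariate thus shares variation with genotype, and with it the calls over all genes went from 160 to 26. A call lost with it cannot be tied to epithelial RNA. The call of Ctsz was lost also without wildtype library 5 (0.0514) and with a replicate block (0.0743).

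Of 16 tested genes of class II transport and surface turnover 1 rose, Cd63, a tetraspanin of the compartments where class II is loaded, and none fell. Cd63 rose 1.71-fold, from 611 ± 167 to 1047 ± 152 CPM (adjusted p = 0.00565 in edgeR's test), and its call ended with the epithelial marker mean as a covariate (adjusted p = 0.192), where the log2 fold change was 0.89 against 0.78 without it. The other gene named by rule was Il10, a cytokine that promotes the removal of class II from the surface, with 155 reads over wildtype and 40 over APOE-KO and an adjusted p of 0.134. March1, the ubiquitin ligase that removes class II from the surface, had 82.8 ± 11.2 and 71.4 ± 11.8 CPM (adjusted p = 0.619). Cd83, which opposes it, had 566.5 ± 40.5 and 691 ± 54.0 CPM (adjusted p = 0.224). Both were added after their values were seen.

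**Figure D3:**
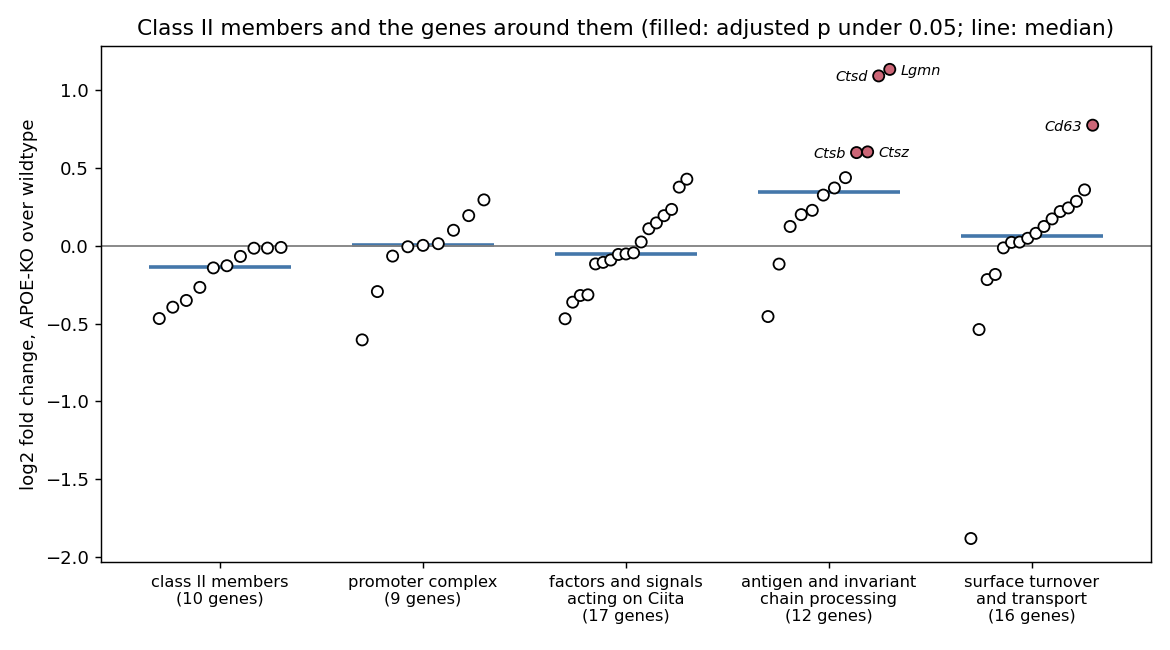
Log2 fold change (APOE-KO over wildtype, vertical axis) of the class II members and of 4 lists of genes around them; each point is a gene, the line is the median of a list, and filled points passed an adjusted p of 0.05. Filled points appear for Ctsb, Ctsd, Ctsz and Lgmn in antigen processing and for Cd63 in transport, and the median is -0.13 for the members and 0.35 for antigen processing.

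Markers of cells that carry class II did not all stay level. The 12 B cell markers summed to 1055 to 1219 CPM in wildtype libraries and 790.4 to 1082 CPM in APOE-KO, and 1 of 11 tested, Fcer2a, fell; Ms4a1, which marks B cells, had an adjusted p of 0.309 with edgeR. Summed plasmacytoid dendritic cell markers ran from 1377 to 3085 CPM and from 1113 to 1457 CPM, with 4 of 9 lower. Conventional dendritic cell markers summed to 3418 to 5025 and 2975 to 3958 CPM (1 of 13 higher, 1 lower). A large part of that sum was Irf8, with means of 2063 and 1653 CPM. The defining markers Zbtb46, Flt3 and Itgax had log2 fold changes of 0.098 to 0.11, and over the 13 markers 5 were above 0 and 8 below. Macrophage markers summed to 1112 to 1351 and 950.2 to 1251 CPM (2 of 12 higher, 3 lower). The sums of mature migratory dendritic cell markers did not overlap, at 2450 to 3404 CPM in wildtype libraries and 3457 to 4755 CPM in APOE-KO (6 of 10 higher). Taken singly, 4 of the 10 markers did not overlap between the genotypes, against 1.77% of all tested genes. Every marker of these lists had more than 3 reads in at least 1 library. Epithelial markers summed to 66.3 to 99.5 and 8.69 to 69.9 CPM (1 of 4 tested lower). With the B cell marker mean as a covariate the log2 fold change of H2-Ob was -0.38 (adjusted p = 0.198 in edgeR's test) in place of -0.39. The 11 tested B cell markers had log2 fold changes from -0.69 to 0.29 (median -0.055), 3 above 0 and 8 below. How far their mean differed between the genotypes was not tested. The part of B cells or of other cell types in the difference of H2-Ob was not tested.

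Between libraries of a genotype, class II genes moved together to different degrees. Each member was compared with the mean log2 CPM of H2-Aa, H2-Ab1, H2-Eb1 and Cd74 (the member itself left out), with genotype means removed, over 12 libraries. These relations were not among the planned tests. Pearson's r was 0.886 for H2-Aa (permutation p = 0.00025, 0.00125 adjusted over the 10 relations; Spearman's rho 0.916, permutation p = 9e-05, adjusted 9e-04). Without the libraries farthest from the median, wildtype 3 and APOE-KO 5, it was 0.934. For H2-Ab1 r was 0.693 (permutation p = 0.0122, adjusted 0.024; rho 0.846, p = 0.00108, adjusted 0.0054) and 0.79 without those libraries. H2-Eb1 had r of 0.851 (permutation p = 0.00015, adjusted 0.00125; rho 0.755, p = 0.00644, adjusted 0.0215), and 0.766 without wildtype libraries 3 and 2.

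The relation was weaker or rested on single libraries for the rest. H2-DMa had r of 0.703 (permutation p = 0.0133, adjusted 0.024; rho 0.371, p = 0.239, adjusted 0.342) and H2-DMb1 0.68 (p = 0.015, adjusted 0.024; rho 0.601, p = 0.0433, adjusted 0.0867). Without wildtype library 3 and APOE-KO library 5 these fell to 0.0858 and 0.148, so they rested on those libraries. Within wildtype and within APOE-KO r was 0.784 and 0.433 for H2-DMa, and 0.664 and 0.778 for H2-DMb1. Cd74 had r of 0.676 (permutation p = 0.0168, adjusted 0.024; rho 0.385, p = 0.218, adjusted 0.342) and 0.444 without wildtype libraries 3 and 1. H2-DMb2 ran the other way with r of -0.821 (permutation p = 0.00161, adjusted 0.00537; rho -0.622, p = 0.034, adjusted 0.085), and -0.576 without wildtype library 3 and APOE-KO library 5. For Ciita r was -0.35 (permutation p = 0.266, adjusted 0.296; rho -0.14, p = 0.667, adjusted 0.701), and -0.289 without the same libraries. H2-Oa (r = 0.406, permutation p = 0.192, adjusted 0.241; rho 0.14, p = 0.666, adjusted 0.701; 0.512 without them) and H2-Ob (r = 0.312, permutation p = 0.328, adjusted 0.328; rho 0.126, p = 0.701, adjusted 0.701; 0.2 without them) did not pass either.

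Ciita followed instead the ribosomal share of the library. Against the log2 share of Rn45s, genotype means removed, its r over 12 libraries was 0.794 (permutation p = 0.00188, adjusted over 10 relations 0.00917; rho 0.734, permutation p = 0.00886, adjusted 0.0886). Without wildtype libraries 3 and 1, the farthest in Rn45s share, r was 0.799, and it was 0.85 within wildtype and 0.822 within APOE-KO. H2-Eb1 had r of -0.804 (permutation p = 0.00275, adjusted 0.00917; rho -0.622, p = 0.0347, adjusted 0.139), H2-Aa -0.729 (p = 0.00774, adjusted 0.0193; rho -0.594, p = 0.0449, adjusted 0.139) and H2-DMb2 0.829 (p = 0.00183, adjusted 0.00917; rho 0.573, p = 0.0557, adjusted 0.139). Without wildtype libraries 3 and 1 these were -0.323, -0.265 and 0.312, so the values of H2-Eb1, H2-Aa and H2-DMb2 over 12 libraries rested largely on those libraries. Within wildtype r was -0.838 for H2-Eb1, -0.759 for H2-Aa and 0.828 for H2-DMb2. Within APOE-KO, which holds neither library, it was -0.505, -0.425 and 0.84. The value of H2-DMb2 there came from 20 to 32 reads per library. For the remaining 6 members, r lay between -0.552 and -0.234, and none passed (adjusted permutation p from 0.125 to 0.471; adjusted permutation p of rho from 0.355 to 0.887). Without wildtype libraries 3 and 1 the sign turned for H2-Oa (0.616), H2-Ob (0.24), H2-DMa (0.0801) and Cd74 (0.0622), and H2-Ab1 and H2-DMb1 had -0.111 and -0.401. For H2-Oa r was -0.547 within wildtype and 0.803 within APOE-KO. These relations were chosen after the data had been seen.

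**Figure D4:**
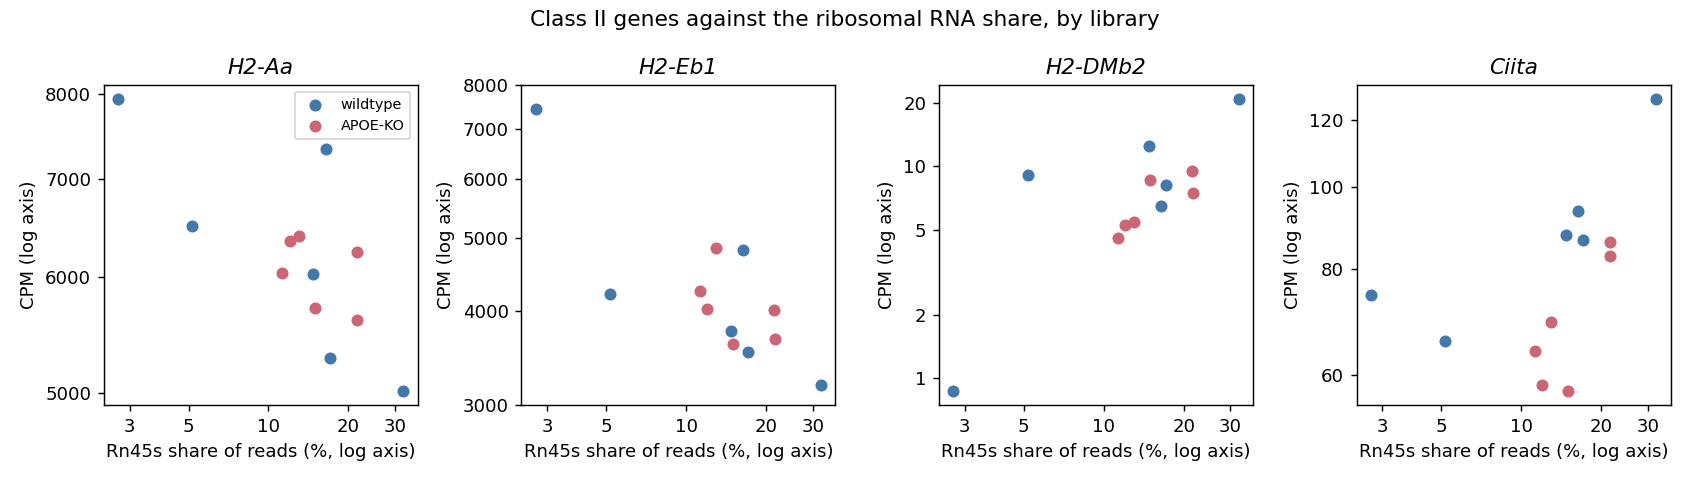
CPM of H2-Aa, H2-Eb1, H2-DMb2 and Ciita (log vertical axes) against the share of reads from Rn45s (percent, log horizontal axes), 1 point per library, coloured by genotype. Wildtype library 3, at 2.71% Rn45s, has the highest H2-Aa and H2-Eb1 and the lowest H2-DMb2, and wildtype library 1, at 32.2%, has the lowest H2-Aa and H2-Eb1 and the highest H2-DMb2 and Ciita.

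None of the 4 relations of the class II mean to marker lists passed after adjustment. With genotype means removed, r over 12 libraries was -0.339 with B cell markers (permutation p = 0.283, adjusted over the 4 relations 0.377; rho -0.273, p = 0.394, adjusted 0.525) and 0.263 without wildtype library 3 and APOE-KO library 3. With conventional dendritic cell markers it was 0.408 (permutation p = 0.192, adjusted 0.377; rho 0.378, p = 0.227, adjusted 0.455), and 0.23 without APOE-KO libraries 5 and 4. Leaving out wildtype library 1 alone gave 0.652 (unadjusted permutation p = 0.0277). Mature migratory dendritic cell markers gave -0.533 (permutation p = 0.072, adjusted 0.288; rho -0.448, p = 0.146, adjusted 0.455), and -0.309 without wildtype library 2 and APOE-KO library 4. Leaving out APOE-KO library 2 alone gave -0.693 (unadjusted permutation p = 0.0183). Macrophage markers gave 0.168 (permutation p = 0.603, adjusted 0.603; rho 0.0699, p = 0.834, adjusted 0.834), and 0.314 without APOE-KO libraries 3 and 4. Within wildtype and within APOE-KO, r was -0.67 and 0.299 for B cells, 0.364 and 0.653 for conventional dendritic cells, -0.738 and -0.102 for mature cells, and 0.0632 and 0.39 for macrophages.

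Among 10322 other tested genes, those whose pattern over the 12 libraries was most like the class II mean (highest Pearson r, genotype means removed) included Slc11a2, Alox5ap, Mefv and Rack1, with r from 0.925 to 0.934. Slc11a2 is an iron transporter, Alox5ap serves leukotriene synthesis, Mefv encodes pyrin, and Rack1 is a ribosomal scaffold protein. They were picked as the highest of many, the points share depth and Rn45s content, and no test goes with them. None of these 4 was called between the genotypes (adjusted p from 0.451 to 0.994 in edgeR's test).

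**Figure D5:**
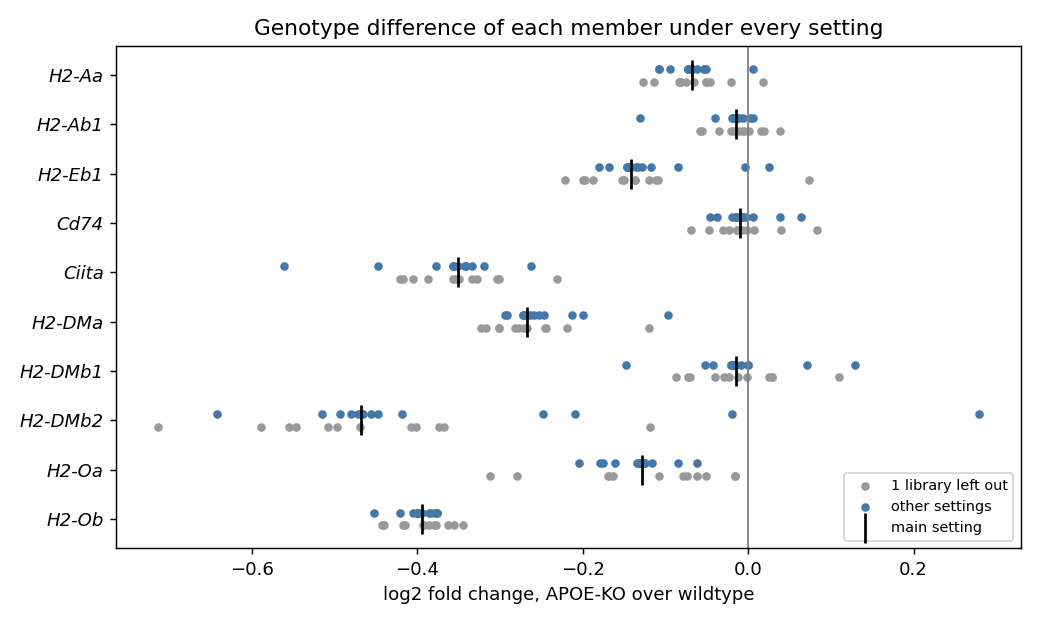
Log2 fold change of each member (APOE-KO over wildtype, horizontal axis) under the main setting (black bar), in the 12 fits without 1 library (grey) and under the other settings (blue). H2-Ob stays between -0.45 and -0.35 and Ciita between -0.56 and -0.23, while H2-Aa, H2-Ab1, H2-Eb1, Cd74, H2-DMb1 and H2-DMb2 fall on both sides of 0.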

How the data were processed

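RNA of CD11c bead-enriched lymph node cells was sequenced as 3′ libraries (Lexogen), per the labels' protocols. The deposited values are whole-number read counts per gene symbol, not normalised. The submitters' processing notes list build mm10 and the tools DESeq2 1.4, R 4.1.0, featureCounts 1.5.1 and STAR 2.7.8a. Not given in the sources used here: annotation, strand setting, multiply mapped reads and molecular identifiers. Library columns were matched by the short descriptions and grouped by the genotype label.

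The counts were fitted with edgeR 4.0.16 under R 4.3.3 (filterByExpr with minimum count 10 and total 15, TMM, glmQLFit and glmQLFTest on genotype, Benjamini-Hochberg over 10714 genes, threshold 0.05). CPM uses TMM-scaled sizes, log2 CPM a prior count of 2, and each SE divides the absolute log2 fold change by the square root of F; intervals are 95%. The common dispersion corresponds to a coefficient of variation of 30.1% between libraries. Correlations used 100000 permutations. Alternatives were other size factors, filters and dispersions, DESeq2 1.42.0, limma-voom (limma 3.58.1), a replicate block, covariates (B cell markers, epithelial markers, Rn45s share) and leaving out libraries; leaving out wildtype libraries 1 and 3 together was added after seeing the data. The fit was tested on simulated data. Every pair of libraries in a group differed beyond sampling noise.

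The rule for the members uses gene names only, but the set and the lists were chosen with earlier results of these data known. Named by rule are all members, Apoe, Itgax, from the pathway lists the passing genes and the 2 with the smallest p (marker lists are given by counts, sums and defining markers), and, of the 5 genes most like the class II mean, 4; some items are not reported here.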

Additional observations from a re-analysis of the deposited data

Results flagged for a closer look

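Of 48 groups of 6 libraries (24 named genes in each genotype), 3 held a library whose gap to the nearest other exceeded Dixon's 95% critical value; chance flags about 1 in 20 groups. H2-DMa stood at 409.7 CPM in wildtype library 3, with the next wildtype library at 284 CPM and the lowest at 225 CPM (gap 0.684 of the range). Tcf4 stood at 953.9 CPM in wildtype library 1, with the next at 652 CPM and the lowest at 519 CPM (gap 0.693). Spi1 stood at 270.1 CPM in APOE-KO library 5, with the next at 190.5 CPM and the lowest at 145 CPM (gap 0.636). Wildtype library 3 had the lowest share of Rn45s and wildtype library 1 the highest; their part in these values was not tested.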

How the results depend on the processing

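In the 25 settings run, no member was called higher, and the 1 called lower was H2-Ob, in DESeq2. The count over all genes (160, of which 116 higher and 44 lower) was 100 (70 higher) with the replicate block, 26 (21 and 5) with the epithelial covariate, 335 (199 and 136) with the Rn45s covariate and 274 (187 and 87) in DESeq2, and 68 genes were lower with no filter on low counts; without 1 library it ran from 99 (without APOE-KO library 3) to 230 (without wildtype library 3), with 72 to 166 higher and 27 to 64 lower. The causes were not tested. The labels do not say that replicate numbers pair the libraries, deviations of same-numbered libraries correlated at -0.077 to 0.0185, and no wildtype library correlated best with its own number, so the block was no main design; under the block no member's direction changed, and the calls of H2-Eb2 and Ctsz ended. Log2 fold changes near 0 changed sign: with no filter H2-Ab1 was 0.0020 and Cd74 0.0060; with the Rn45s covariate H2-Aa was 0.0063, H2-Ab1 0.0054, H2-Eb1 0.025, H2-DMb1 0.071 and Cd74 0.038; in limma-voom H2-DMb2 was 0.28; without wildtype libraries 1 and 3 H2-DMb1 was 0.13 and Cd74 0.064; with the epithelial covariate Nfyc was 0.0073. Without 1 library H2-Aa ran from -0.13 to 0.018, H2-Ab1 from -0.058 to 0.038, H2-Eb1 from -0.22 to 0.074, H2-DMb1 from -0.087 to 0.11 and Cd74 from -0.069 to 0.083. In the same fits r of the class II mean ran from -0.539 to 0.236 for B cell markers, 0.249 to 0.652 for conventional dendritic cells, -0.693 to -0.352 for mature cells and -0.01 to 0.361 for macrophages. H2-DMb2 had the fewest reads of the members (149 over APOE-KO).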

Other observations

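H2-Aa was set against the gene of the bead target as a ratio of levels. There were 19.6 to 26.4 H2-Aa reads per Itgax read in wildtype and 18.0 to 25.8 in APOE-KO, with medians of 23.1 and 19.3. H2-Eb2 stood at 0.0134 to 0.0314 of H2-Eb1 in wildtype and at 0.0242 to 0.0497 in APOE-KO, so the ratios overlapped although the CPM of H2-Eb2 did not; wildtype library 3 gave the lowest ratio. The ratio of H2-DMb1 to H2-DMa ran from 2.46 to 3.88 and from 2.93 to 4.01. No test goes with these ratios.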
